A study of Homo sapiens with 4 samples.

Results

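Passenger strand miRNAs, whose names on the array end in a star, were examined in the colonic adenocarcinoma lines HT-29 and LS174T with and without knockdown of Ascl2. They were the human probes whose name began with miR or let and ended in *, and 177 of the 188 such probes were analysed here (11 were not), out of 1276 human and 1422 named miRNA probes. A guide probe, the probe of the same name without the star, existed for 144 of the 177. The other 33 star probes had none of that exact name, and 171 had one once the number of the genomic copy was dropped from the name, as in miR-138-1*. A pair of the star probes carried a joined name that stands for several miRNAs.

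Total RNA of 4 stable transfectants was hybridized to 4 one-colour miRNA arrays of the same Exiqon design, 1 for each group. In HT-29 the knockdown was shRNA-Ascl2/HT-29 with shRNA-Ctr/HT-29 as its control, and in LS174T it was shRNA-Ascl2/LS174T with shRNA-Ctr/LS174T as control. All 4 carried an EGFP vector and were kept in G418, at 0.4 mg/ml for HT-29 and 0.2 mg/ml for LS174T. The control vector had no shRNA insert, several independent clones had been established for each transfection, and which of them was arrayed is not given in the sources used here. The arrays hold no probe for Ascl2 mRNA, so the knockdown itself was not measured on them. There was no replicate array, so each SD is over the 4 spots of a probe and is technical only. Signal means the foreground minus the local background, averaged over the 4 spots of a probe, in arbitrary units (a.u.). A ratio is the signal in shRNA-Ascl2 cells over that in the shRNA-Ctr cells of that line, with the signals of each array first scaled to its own median over the named miRNAs that exceeded 50 in both vectors. Up-regulated means a ratio of at least 2 and down-regulated a ratio of at most 0.5, provided that the signal exceeded 50 on the brighter of the arrays. The shRNA-Ctr/LS174T array stood apart, since its spike-in controls were dimmer relative to its miRNAs, by a median of 8.60-fold against shRNA-Ascl2/LS174T, and its epithelial guides had the lowest signals, so a comparison without it is given last.

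A miRNA hairpin is cut by Drosha and then by Dicer into a short duplex. The strand that is usually loaded into Argonaute is called the guide, and the opposite strand, the passenger, is mostly degraded, although for some hairpins it is loaded as well. Both strands come from the same transcript, and each has its own seed, the bases near its 5′ end that pair with target mRNAs. The star marked the rarer strand in older catalogues, and current names give the arm instead, 5p or 3p. The probes of the arms differ in sequence and in affinity, so a star probe brighter than its guide probe shows an order of signals and not of levels.

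Of the 106 star miRNAs detected on at least 1 array, 96 were matched by name to a mature sequence of RefSeq (GRCh38.p14), and both arms were matched for 94. The sequences of 10 hairpins are shown because the results below turn on them, with the star first, the guide second and the seed (bases 2 to 8) in capitals.
miR-17*: aCUGCAGUgaaggcacuuguag
miR-17: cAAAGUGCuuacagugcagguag
miR-20a*: aCUGCAUUaugagcacuuaaag
miR-20a: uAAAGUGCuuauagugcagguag
miR-29a*: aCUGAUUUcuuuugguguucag
miR-29a: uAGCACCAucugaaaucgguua
miR-200b*: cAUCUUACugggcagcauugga
miR-200b: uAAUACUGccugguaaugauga
miR-22*: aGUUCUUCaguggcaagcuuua
miR-22: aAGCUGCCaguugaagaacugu
miR-183*: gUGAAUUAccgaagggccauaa
miR-183: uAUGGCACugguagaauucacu
miR-193b*: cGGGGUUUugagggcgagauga
miR-193b: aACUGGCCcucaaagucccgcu
miR-625*: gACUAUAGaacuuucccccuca
miR-625: aGGGGGAAaguucuauagucc
miR-149*: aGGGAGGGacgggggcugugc
miR-149: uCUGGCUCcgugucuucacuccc
miR-877*: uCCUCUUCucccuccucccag
miR-877: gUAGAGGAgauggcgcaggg
The guides of miR-17 and miR-20a, which are made from the same polycistronic transcript of the miR-17-92 cluster, share a seed, whereas their stars do not. The star of miR-17 lies at chr13:91350655-91350676 and that of miR-20a at chr13:91351108-91351129, both on the plus strand. The star of miR-200b lies at chr1:1167124-1167145 on the plus strand, that of miR-22 at chr17:1713952-1713973 on the minus strand and that of miR-29a at chr7:130876786-130876807 on the minus strand. The remaining stars lie at chr7:129774928-129774949 on the minus strand (miR-183*) and, on the plus strand, at chr16:14303980-14304001 (miR-193b*), chr14:65471153-65471174 (miR-625*), chr2:240456056-240456076 (miR-149*) and chr6:30584397-30584417 (miR-877*). The hairpin of miR-149 is within an intron of GPC1, that of miR-625 within FUT8, and that of miR-877 is a mirtron of ABCF1, spliced out as a short intron. Of the 96 matched stars, 63 are 3p arms and 33 are 5p arms. The median GC content was 50% for the 96 star sequences. Among the 94 hairpins with both arms it was 50% for the star and 44.7% for the guide.

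About every other star probe was above 50. This held for 90 of 177 in shRNA-Ascl2/HT-29 (50.8%, 95% Wilson interval 43.5 to 58.1%), 92 in shRNA-Ctr/HT-29 (52.0%), 89 in shRNA-Ascl2/LS174T (50.3%) and 76 in shRNA-Ctr/LS174T (42.9%, 35.9 to 50.3%). Of all human miRNA probes, 41.5%, 43%, 41.8% and 43% were above 50 on the same arrays, and of the 144 guide probes 64.6%, 64.6%, 64.6% and 67.4%. The 7 negative control probes reached at most 55.75, 55.75, 28.25 and 65.5 on the arrays in the same order. On every array but shRNA-Ascl2/LS174T, a star between 50 and that array's value was thus no brighter than its brightest negative control. The intervals assume that probes are independent of each other and do not include variation from culture to culture. The shRNA-Ctr/LS174T array had the fewest stars above 50 but not the fewest guides.

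Of the 177 star miRNAs, 64 were above 50 on all 4 arrays, 71 were on none, and the remainder on 1 to 3, so that 106 were on at least 1. Of the 1422 named miRNA probes, 471 were above 50 on all 4 arrays and 713 on at least 1. The patterns that follow were not counted over all probes. The 16 stars above 50 on every array but shRNA-Ctr/LS174T included miR-200a*, miR-192*, miR-182*, let-7i*, miR-29c* and miR-18a*. Only 4 stars were above 50 on shRNA-Ctr/LS174T alone, with miR-92a-2* the brightest of them at 89.8. The stars above 50 on both HT-29 arrays and neither LS174T array were let-7e*, miR-452* and miR-518c*. The reverse held for miR-214* alone, at 77.8 and 80.8 in LS174T against 19.5 and 28.3 in HT-29. These stars were picked by their pattern after their values were seen.

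Signals above 1000 were reached by 16 stars on at least 1 array and by 4 on all 4 arrays, namely miR-138-1*, miR-149*, miR-24-1* and miR-335*. The miR-24-1* probe had the most even signal of these, at 1018 ± 384 (shRNA-Ascl2) and 1127 ± 290 (shRNA-Ctr) in HT-29 and 1111 ± 129.7 and 1149 ± 122.8 in LS174T (mean ± SD, 4 spots). The miR-335* probe read 1830 and 1772 in HT-29 and 1591 and 2045 in LS174T, shRNA-Ascl2 first as in all following sentences. Its hairpin lies within MEST, an imprinted gene. The miR-138-1* probe read 1208 and 1722 in HT-29 and 1311 and 2507 in LS174T, and the miR-138-2* probe, for the other copy of a hairpin best known from neurons, 754 and 795 in HT-29 and 1491 and 2052 in LS174T. Of these 5 stars miR-149* alone was called, in LS174T, at a ratio of 0.417. After the landmark correction described below that ratio was 0.506, without a call. The miR-138-1* ratio in LS174T was 0.508, just short of a call, and 0.505 after the same correction.

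**Figure D1:**
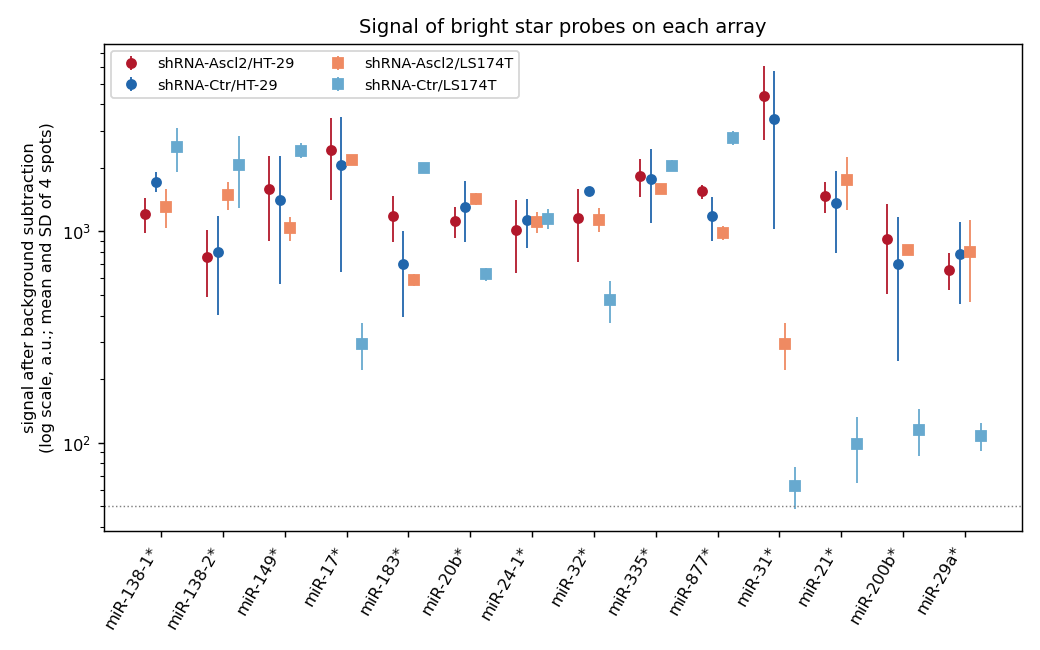
Signal after background subtraction (log scale, a.u.) of 14 bright star probes on each array, as the mean and SD of 4 spots; the dotted line is the limit of 50. On the shRNA-Ctr/LS174T array miR-21*, miR-31*, miR-200b* and miR-29a* sit between 62.8 and 116, while miR-149* and miR-877* are at 2412 and 2777 there.

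Most star probes were dimmer than the guide probe of their hairpin. Among the pairs with an arm above 50 (107, 107, 104 and 110 on the arrays in the order given), the star was the brighter one in 22, 21, 21 and 27. That is 20.6% of pairs in shRNA-Ascl2/HT-29 (14 to 29.2%), 19.6% in shRNA-Ctr/HT-29, 20.2% in shRNA-Ascl2/LS174T and 24.5% in shRNA-Ctr/LS174T (17.5 to 33.4%). Where both arms were above 50, the guide exceeded the star by a median of 8.59-fold (57 pairs), 11-fold (57), 7.67-fold (58) and 1.77-fold (44). The median gap between the arms was thus the smallest on the shRNA-Ctr/LS174T array. On the arrays in turn the guide alone was above 50 in 36, 36, 35 and 53 pairs and the star alone in 14, 14, 11 and 13.

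**Figure D2:**
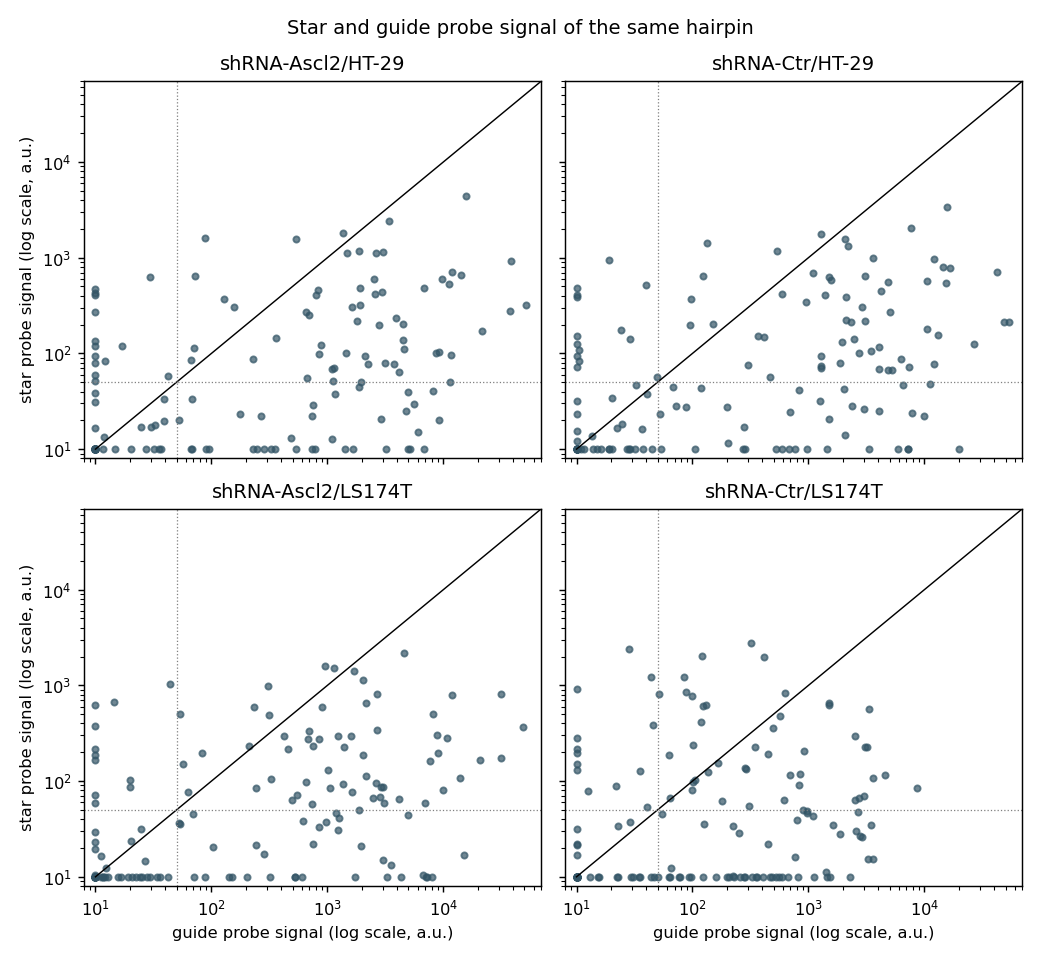
Star probe signal (vertical) against guide probe signal (horizontal) of the same hairpin on each array, both on log scales in a.u., with values below 10 drawn at 10; the solid line marks equal signal and the dotted lines the limit of 50. Most hairpins lie below the line, 22, 21, 21 and 27 pairs with an arm above 50 lie over it, and on shRNA-Ctr/LS174T few guides reach the brightest range seen on the other arrays.

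The epithelial hairpins had a large gap in favour of the guide, as had hairpins of other kinds such as miR-19a, miR-23a and miR-93. The miR-200b guide, which represses the ZEB factors and so keeps cells epithelial, read 37951 and 41918 in HT-29 and 31231 and 4562 in LS174T, while miR-200b* read 925 and 705 and then 817 and 116. The miR-141 guide of the same family read 37262 and 53336 in HT-29 and 49045 and 8575 in LS174T, against 279 and 215 and then 364 and 85.3 for miR-141*. The miR-194 guide, a marker of intestinal epithelium, read 11541 and 12204 in HT-29 and 13794 and 826 in LS174T, whereas miR-194* stayed between 76.8 and 108 on the 4 arrays. The miR-23a guide read 9200 in shRNA-Ascl2/HT-29 beside 104 for its star, and the miR-93 guide 8603 beside 100.5 for its star. All 8 guides taken as markers of colonic epithelium were above 50 on every array, with a summed signal of 176921, 208057, 164904 and 22665. Their lowest sum was that of shRNA-Ctr/LS174T, and its part in the LS174T results below was not tested. Of 6 guides known from blood cells 3, 3, 2 and 6 were above 50 on the arrays in order, of 6 from stroma and muscle 0, 1, 1 and 3, and of 4 from neurons 2, 3, 3 and 3, while the endothelial miR-126 read 95.5, 87.5, -0.75 and -11.3. Their part in the results was not tested either. In RNA of whole cultures, fewer cells with a miRNA and less of it per cell cannot be told apart.

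The opposite order held in 16 hairpins, whose star was above 50 and brighter than the guide on all 4 arrays. The miR-149* probe read 1592 and 1413 in HT-29 and 1035 and 2412 in LS174T, whereas the miR-149 guide read 87.3 and 134.5 and then 44.0 and 28.5. The miR-877* probe read 1548 and 1178 in HT-29 and 983 and 2777 in LS174T, against 538 and 538 and then 305 and 322 for the miR-877 arm. The miR-363* probe read 407 and 479 in HT-29 and 372 and 925 in LS174T, and its guide was between -18.3 and 4. The other such stars were miR-625*, miR-2115*, miR-505*, miR-9*, miR-376a*, miR-675*, miR-145*, miR-431*, miR-335*, miR-493*, miR-187*, miR-122* and miR-551b*. In 7 of the 16 the guide was at or below 50 on all arrays, among them miR-145, a miRNA of smooth muscle, whose star read 121, 124, 167 and 281 beside a guide between -2.25 and 5.50. For the 15 of the 16 with both sequences matched, the median GC content was 45.5% for the star and 52.2% for the guide, and 10 of the stars were 3p arms. Whether the probe sequences set this order was not tested.

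In HT-29 few star miRNAs passed the threshold. Of 96 tested, 1 was up-regulated and 4 were down-regulated, where 4.63% of all 627 probes tested rose and 8.45% fell (13.1% in all), and 4.17% and 8.51% of the 576 human ones (12.7%). The clearest was miR-505*, at 273 ± 98.6 in shRNA-Ascl2/HT-29 and 943 ± 148 in shRNA-Ctr/HT-29, a ratio of 0.317. Its guide read -0.500 and 19 and could not be compared. The miR-22* probe read 201 ± 91.8 and 446 ± 75.4, a ratio of 0.494, while the miR-22 guide read 4490 and 4199, a ratio of 1.17. These were the stars called in each set of spots when the lower-numbered blocks of the array (1 to 18) and the higher-numbered ones (19 to 36), which hold 2 spots of each probe, were taken apart.

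The other HT-29 calls were near the limit of 50. The miR-33b* probe read 29.5 and 66.8, miR-589* read 7.75 and 57.3, and miR-27b*, the single rise, read 79.3 and 28.3. None of the 3 was above 50 on both arrays. Over the 86 stars above 50 on both, the median log2 ratio was 0.06, with 46 above 0 and 40 below, against -0.09 for 90 guides and 0.04 for all 544 probes. The landmark controls, spotted in every block, had a signal in the higher-numbered blocks that was 0.553 times that in the lower-numbered ones for shRNA-Ascl2/HT-29 and 1.35 times for shRNA-Ctr/HT-29. After correction for this, miR-22* had a ratio of 0.713 and was no longer called, and 9 stars rose, so the HT-29 counts move with the position on the array.

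In LS174T the star miRNAs changed far more often, as did all probes. Of 99 tested, 34 were up-regulated and 19 down-regulated (53.5% together), where 26.8% of all 669 probes rose and 27.7% fell (54.4%), and 28.8% and 25.4% of the 614 human ones (54.2%), so the share of stars called was close to that of all probes. Of the 102 guides tested, 56 rose and 13 fell. Among the 66 stars above 50 on both arrays, 15 rose and 13 fell, and the median log2 ratio was -0.21 (27 above 0 and 39 below), while that of 88 guides was 1.46 (64 above and 24 below) and that of all 507 probes -0.29. Among probes above 50 on both LS174T arrays, the guides thus lay well above all probes and the stars did not. Over all tested probes, with signals under 50 raised to 50, the median log2 ratio was 0.02 for the stars. It was 1.32 for the guides and -0.27 for all 669 probes, so the stars then lay above all probes, by less than the guides. Of the 53 calls, 47 were made in each of the block sets and 49 after the landmark correction.

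These directions depend on the scaling. Of 40 spike-in controls above 50 on both LS174T arrays, 37 rose at least 2-fold under the miRNA scaling, with a median ratio of 8.60, while in HT-29 none of 46 changed and the median was 1.03. Scaling by the spike-in controls lowered every LS174T log2 ratio by one constant, a shift of -3.07, after which 7 stars rose and 80 fell. The order of the ratios among miRNAs is untouched by this shift. The part of the amount of RNA or of labelling in the LS174T ratios was not tested.

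Among stars above 50 on both LS174T arrays, the rises were led by miR-21*, the passenger of an miRNA raised in many carcinomas. It read 1754 ± 494 in shRNA-Ascl2/LS174T and 98.3 ± 33.7 in shRNA-Ctr/LS174T, a ratio of 17.3, and 1467 and 1364 in HT-29, a ratio of 1.18. The shRNA-Ctr/LS174T array was the low one, and the other 3 lay between 1364 and 1754. Among the same stars miR-17* followed with 2182.3 ± 108 and 294 ± 73.3, a ratio of 7.22, and miR-29a* with 798 ± 331 and 108 ± 16.1, a ratio of 7.18. The miR-200b* probe, at 817 ± 45.4 and 116 ± 29, had a ratio of 6.87. In all 4 the shRNA-Ctr/LS174T signal was the lowest, below both HT-29 signals. After the spike-in scaling the log2 ratios of miR-17*, miR-29a* and miR-200b* were -0.22, -0.23 and -0.29.

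Further rises were found for miR-106b* (301 and 63.8, ratio 4.59), miR-31* (295 and 62.8, ratio 4.56), miR-20a* (284 and 66.0, ratio 4.18) and miR-141* (364 and 85.3, ratio 4.15). Each of these log2 ratios was below 0 after the spike-in scaling, at -0.88, -0.88, -1.01 and -1.02. Of the 34 rises, 19 were of stars at or below 50 in shRNA-Ctr/LS174T. The largest of these was miR-192*, from a hairpin of intestinal epithelium, at 505 and 7.75, which is at least 9.81-fold when the dim array is set to 50. In the miR-182*, miR-29c* and miR-33b* pairs the control signal was below 0, which gives a direction only.

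Among stars above 50 on both LS174T arrays, the largest falls were smaller than the largest rises. They were miR-183* at 592 ± 37.2 and 1992 ± 73.9 (ratio 0.288), miR-675* at 196 ± 64.4 and 605 ± 72.1 (0.315) and miR-877* at 983 ± 72.6 and 2777 ± 200 (0.344). The passenger miR-374b* read 299 and 824 (0.352), miR-30c-1* 172 and 466 (0.358) and let-7a-2* 541 and 1454 (0.361). Of the called stars at or below 50 in shRNA-Ascl2/LS174T, miR-373* read 29.8 and 152 and miR-18b* 46.8 and 190, ratios of 0.320 and 0.256 when the dim array is set to 50. In each of the first 6 the shRNA-Ctr/LS174T array was the highest of the 4. After the spike-in scaling these falls remain falls and are deeper by the same constant.

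By family, the stars of LS174T did not all move together. The counts below stand beside the 26.8% of all 669 probes that rose and the 27.7% that fell in LS174T (4.63% and 8.45% in HT-29), and lists with 5 or fewer tested stars are too short to be set apart from these shares. Of the 15 measured stars of the miR-17-92 cluster and its paralogs, which promote proliferation, 11 were tested. Of these, 6 rose (miR-17*, miR-18a*, miR-19b-1*, miR-20a*, miR-20b* and miR-106b*) and 2 fell (miR-18b* and miR-92a-2*), and in HT-29 none of 9 changed. With signals floored at 50 the ratios of miR-18a* and miR-19b-1* were 1.71 and 1.20. The miR-20b* ratio of 2.20 was 1.95 from the higher blocks and 1.96 after the landmark correction, without a call. The calls of miR-17*, miR-20a* and miR-106b* held in both block sets and after that correction. Of the 4 stars of the miR-200 family, 3 rose (miR-141*, miR-200a* and miR-200b*) and miR-200c* read 165 and 229, a ratio of 0.699. Of 5 tested stars from hairpins raised in colorectal cancer, 4 rose (miR-21*, miR-31*, miR-182* and miR-224*) and miR-183* fell. The miR-224* ratio of 2.05 was under 2 in each block set and after the landmark correction. In the miR-30 family miR-30e* rose and miR-30c-1* fell, and in the let-7 family, which represses RAS and MYC, let-7i* rose and let-7a-2* fell. None of the 5 tested stars of hairpins known from neurons, and none of 3 from the HOX clusters or 3 from stroma, muscle and endothelium, passed the threshold. The median floored log2 ratio was 0.65 for the miR-17-92 list, against 0.02 for all 99 tested stars and -0.27 for all 669 probes. It was 1.91 for the miR-200 list, which at 4 tested stars is too short to be set apart.

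Under the main scaling no star was called in the same direction in both lines. With only 1 star up and 4 down in HT-29, few could have been, and the same count over all probes is not given here. After the landmark correction miR-24-2* and miR-9* were up in both, and from the lower blocks alone 8 stars were, against none from the higher blocks. With the median of the spots miR-27b* was up in both, with the spike-in scaling miR-505* was down in both, and at 1.5-fold miR-24-2*, miR-200a* and miR-224* were up in both. The remaining alternatives gave none, and this count across settings was added after the values were seen. Of the stars tested in both lines, 42 were called in neither, and 27 were up and 17 down in LS174T alone. Another 2 were down in HT-29 and up in LS174T (miR-22* and miR-33b*). The miR-505* probe was down in HT-29 and not called in LS174T, at 596 and 389 there. A model across both lines (limma, cell line as a block, 1 residual degree of freedom) called 0 of 106 stars and 0% of 713 probes for the vector. The lowest adjusted p was 0.975 and 0 stars had an unadjusted p under 0.05. With so few degrees of freedom this does not show that the stars were unchanged.

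**Figure D3:**
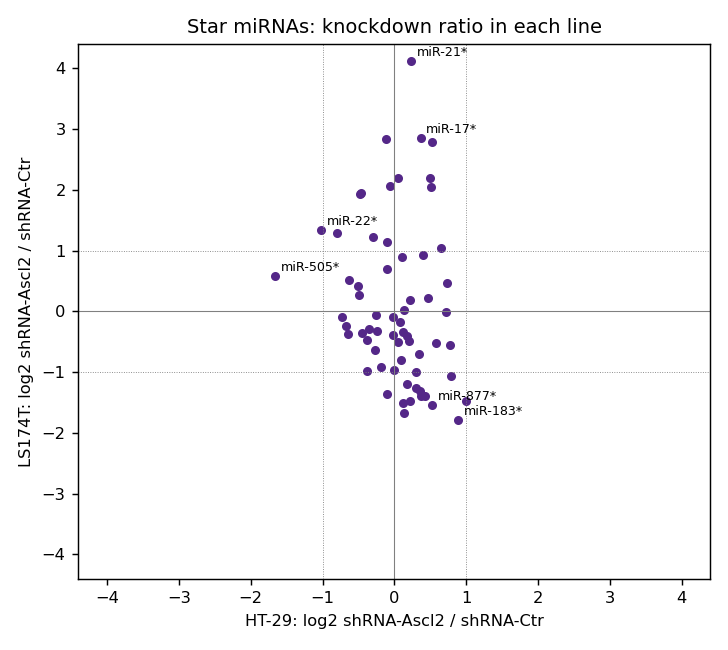
Log2 ratio of shRNA-Ascl2 over shRNA-Ctr for the 64 star probes above 50 on all 4 arrays, HT-29 on the horizontal and LS174T on the vertical axis; dotted lines mark 2-fold. The spread is along the vertical axis, from miR-183* to miR-21*, and only miR-505* and miR-22* lie past 2-fold below 0 on the horizontal axis.

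Next it was asked whether the arms of a hairpin gave the same knockdown ratio. In HT-29, 54 pairs had both arms above 50 on both arrays, and in 28 of them the log2 ratios had the same sign (51.9%, 38.9 to 64.6%). Pearson's r over these pairs was 0.03 and Spearman's rho 0.06, and the median absolute difference of the log2 ratios was 0.53. No pair was called in both arms, 1 was called in the star alone (miR-22), 6 in the guide alone and 47 in neither. The ratios of a single probe from the lower and from the higher blocks had the same sign in 60.6% of 71 stars (r = 0.33) and in 65.1% of 86 guides (r = 0.01). Their median absolute difference was 0.43 for the stars and 0.55 for the guides. The arms of a hairpin thus differed in HT-29 by about as much as repeated spots of the same probe. All pairs of a line share the same 2 arrays.

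The guide-only pairs of HT-29 show how wide that spread was. The miR-17 guide read 3419 ± 1849 in shRNA-Ascl2/HT-29 and 7656 ± 1088 in shRNA-Ctr/HT-29, a ratio of 0.489, and miR-17* read 2428 ± 1024 and 2056 ± 1411, a ratio of 1.29. The miR-17 guide had a ratio of 0.539 from the lower blocks and 0.336 from the higher ones, and of 0.818 after the landmark correction, where it was no longer called. The miR-17* ratio was 2.82 from the lower blocks and 0.637 from the higher ones. The miR-193b guide read 824 ± 665 and 2099 ± 479, a ratio of 0.429 that became 0.609 and lost its call after the landmark correction (0.515 and 0.182 by block set), against 460 ± 79.7 and 387 ± 53.4 for miR-193b*, a ratio of 1.30. The miR-99b guide read 2945 and 1555, a ratio of 2.07, with 37.3 from the lower blocks and 0.540 from the higher ones, and miR-99b* read 443 and 585. The miR-124 guide, known from neurons, read 885 ± 177 and 365 ± 153, a ratio of 2.65 that was above 2 in both block sets, and miR-124* read 121 and 150, a ratio of 0.883. For miR-17* and miR-99b the ratios of the block sets lay on opposite sides of 1.

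In LS174T, 39 pairs had both arms above 50 on both arrays, and 26 had the same sign (66.7%, 51.0 to 79.4%). Over all tested stars, only 15 of the 34 rises but 13 of the 19 falls were above 50 on both arrays. This limit thus left out more rising stars than falling ones, among them miR-192* and miR-200a*, whose guides also rose. Arm agreement among the pairs left out was not tested. Pearson's r was 0.26, Spearman's rho 0.22 and the median absolute difference 1.18. The same probe in the block sets had the same sign in 85.5% of 62 stars (r = 0.95) and 95.2% of 83 guides (r = 0.84), with a median absolute difference of 0.39 for the stars. Among the 39 pairs kept in LS174T the arms thus differed by more than repeated spots did. The median log2 ratio of these pairs was -0.10 for the star and 1.77 for the guide. With the spike-in scaling 89.7% had the same sign, since nearly all ratios then lay below 0.

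**Figure D4:**
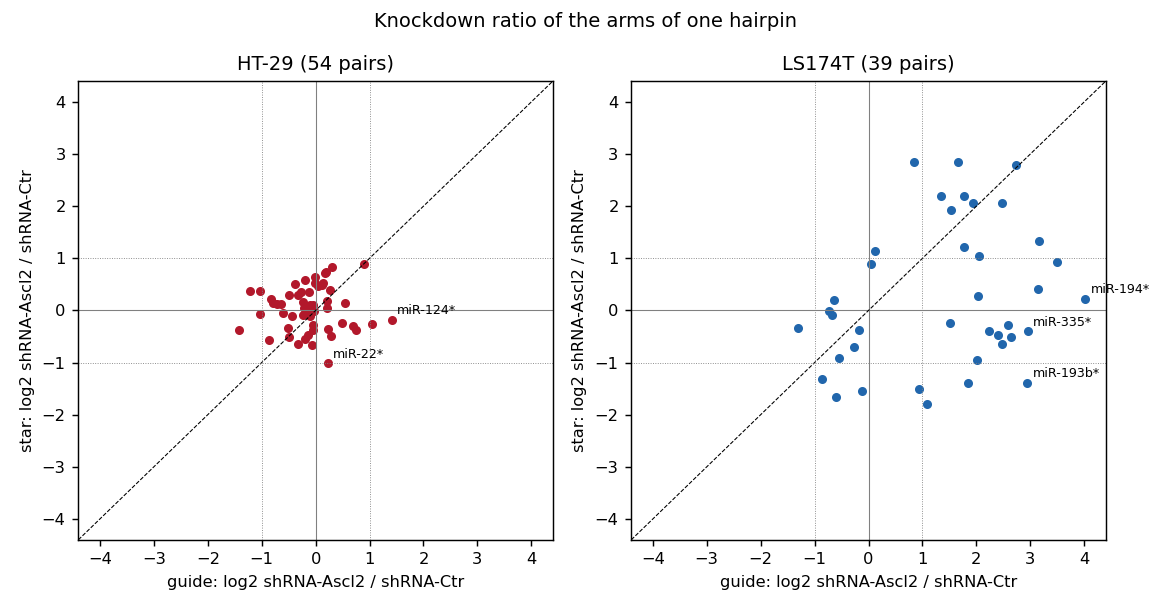
Log2 ratio of shRNA-Ascl2 over shRNA-Ctr of the star (vertical) against the guide (horizontal) of each hairpin with both arms above 50 on both arrays of the line; the dashed line marks equal ratios and dotted lines 2-fold. The 54 HT-29 pairs cluster round 0 and the 39 LS174T pairs spread to the right, with miR-194, miR-193b and miR-335 far below the line.

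In 10 hairpins of LS174T both arms were up-regulated, miR-20a, miR-22, miR-29a, miR-30e, miR-31, miR-32, miR-106b, miR-141, miR-200b and miR-224. The miR-224* ratio of 2.05 was at the threshold. It was 1.97 from the lower blocks, 1.995 from the higher ones and 1.91 after the landmark correction, and was called in none of these. The ratios of miR-200b were 6.87 for the star and 6.65 for the guide, and those of miR-20a 4.18 and 3.82. The miR-29a guide, which represses collagens and DNA methyltransferases, read 11799 and 3612, a ratio of 3.17 beside 7.18 for its star. The miR-22 guide read 2658 and 288, a ratio of 8.96 beside 2.52 for its star, which read 345 and 133. The log2 ratios of all 10 stars were below 0 after the spike-in scaling, and that of miR-22* was -1.74.

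In 3 hairpins the arms were called in opposite directions. The miR-183 guide, which is made with miR-96 and miR-182 from one transcript, read 892 ± 71.5 and 412 ± 18.7, a ratio of 2.11, whereas miR-183* fell to 0.288. That guide ratio was 2.29 from the lower blocks, 1.79 from the higher ones and 1.88 after the landmark correction. The miR-183 guide was thus not called from the higher blocks or after the correction. The miR-193b guide read 695 ± 208 and 87.5 ± 32.3, a ratio of 7.71, and miR-193b* 335 ± 44.3 and 852 ± 64.0, a ratio of 0.382. The miR-625 arm read 312 ± 46.1 and 84.5 ± 14, a ratio of 3.59, and miR-625* 487 ± 38.6 and 1236 ± 165, a ratio of 0.383. In HT-29 miR-183 and miR-183* had nearly equal ratios over all spots, 1.86 and 1.85. The miR-183* ratio there was 2.99 from the lower blocks, 1.21 from the higher ones and 2.40 after the landmark correction. The miR-183 guide had 1.81, 1.89 and 1.74 in the same order, so the near equality did not hold after the correction. The opposite calls of LS174T rest on the miRNA scaling, since the spike-in scaling shifts both arms by the same constant, and the gap between the arms is the same under either.

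The star alone was called in 6 pairs and the guide alone in 13. The star-only pairs were miR-17, miR-20b, miR-374b, miR-519e, miR-675 and miR-877. The miR-17 guide read 4596 and 2498, a ratio of 1.79 beside 7.22 for its star. Among the guide-only pairs the miR-194 guide had a ratio of 16.2 and its star, at 108 and 90.3, one of 1.17. The miR-335 guide read 961 and 121, a ratio of 7.72, and miR-335* 1591 and 2045, a ratio of 0.756. The miR-200c guide read 20736 and 3229, a ratio of 6.24, beside 0.699 for miR-200c*. In these 3 pairs the guide had the larger ratio.

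The arms were also compared between the lines on arrays of the same vector, a comparison added after the values were seen. On the shRNA-Ascl2 arrays 48 pairs had both arms above 50, and 31 had the same sign (64.6%, r = 0.77, rho = 0.53), with a median absolute difference of 0.36. In 4 of these both arms differed at least 2-fold, in the same direction each time. The miR-31 hairpin was 13.0-fold higher in HT-29 by its star and 8.53-fold by its guide, miR-10a 6.45-fold and 15.8-fold, and let-7i 4.61-fold and 3.97-fold. The miR-192 hairpin was higher in LS174T, 2.47-fold by its star and 2.39-fold by its guide. On the shRNA-Ctr arrays 38 pairs gave 23 of the same sign (60.5%, r = 0.29), a median absolute difference of 1.52, 11 pairs 2-fold in the same direction and 5 in opposite directions. By the median absolute difference, r and rho, the arms were closer on the shRNA-Ascl2 arrays than in either comparison that used shRNA-Ctr/LS174T. By sign they were not, at 64.6% against 66.7% for the LS174T knockdown ratios. The sets of pairs also differed, with 48 here against 39 and 38.

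**Figure D5:**
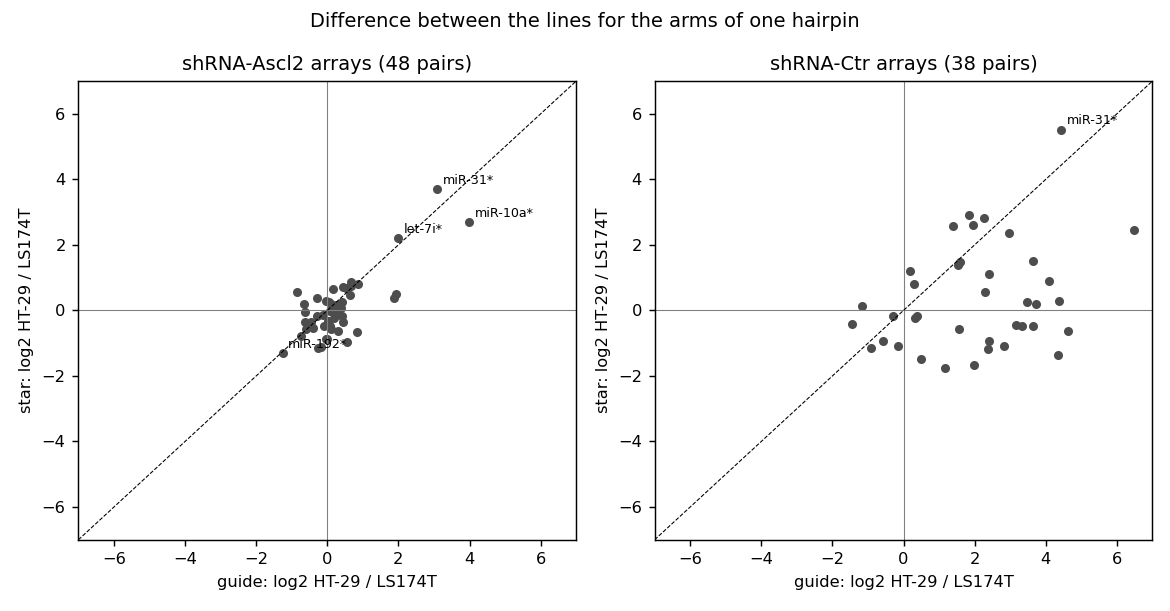
Log2 ratio of HT-29 over LS174T of the star (vertical) against the guide (horizontal) of each hairpin, on the shRNA-Ascl2 arrays (48 pairs) and the shRNA-Ctr arrays (38 pairs); the dashed line marks equal ratios. By the median absolute difference the left panel is closer to the line (0.36) than the right panel (1.52), with miR-31, miR-10a and let-7i at the upper right. Some pairs of the left panel, such as miR-224 and miR-99b, lie well off the line.

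The star of miR-31, a hairpin raised in many colorectal carcinomas, read 4374 ± 1681 and 3392 ± 2366 in HT-29 and 295 ± 73.8 and 62.8 ± 14.2 in LS174T. Its guide read 15585 and 15646 in HT-29 and 1598 and 611 in LS174T. The star of miR-10a, from a HOX cluster, read 717 and 792 in HT-29 and 97.3 and 124 in LS174T. In the limma model the log2 difference of HT-29 over LS174T was 4.61 ± 0.67 (SE) for miR-31* and 2.57 ± 0.41 for miR-10a*, each with an adjusted p of 0.737. No star and 0% of 713 probes had an adjusted p under 0.05 for the line, while 9 of 106 stars and 35 of 713 probes had an unadjusted p under 0.05.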

How the data were processed

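Stable transfectants of HT-29 and LS174T were profiled on 4 Exiqon arrays, 1 per group, each labelled with Hy3. The authors scanned the arrays and extracted the spots with GenePix Pro 6.0. The deposited scanner tables hold the linear intensity of the foreground and of the foreground minus background for each of 12312 spots per array, with 4 spots per star probe. A further deposited table of the authors holds a processed signal per probe, the background-subtracted median divided by 1 factor per array, and was used as an alternative. The authors' lists hold fold changes and were not used.

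The mean of the 4 spots was taken, and for each line the arrays were scaled to their medians over the named miRNAs exceeding 50 in both vectors, of which there were 544 for HT-29 and 507 for LS174T. The factors of shRNA-Ascl2 and shRNA-Ctr were 275.3 and 301.1 for HT-29 and 300 and 291.5 for LS174T, and the median backgrounds in the same order were 65, 50, 52 and 64. Over stars above 50 the median coefficient of variation of the spots was 30.3%, 28.2%, 18.5% and 22.1%. The number of arrays limits the precision. For floored ratios, signals under 50 were raised to 50. Lines were compared in the added between-line analysis after scaling on the 471 probes above 50 on all 4 arrays. Shares have 95% Wilson intervals.

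The vector and the line were tested with limma 3.58.1 (R 4.3.3) on log2 signals, floored at 50, of probes above 50 on at least 1 array, with both terms and Benjamini-Hochberg adjustment over all 713 probes. Calling, arm agreement and limma were tested on simulated data. Mature sequences came from RefSeq tables (GRCh38.p14), and the star names were assigned to current arm names by hand. Alternatives changed the scaling, the background, the limit, the spot summary, the fold, the block range, the guide partner and the table.

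Named stars were the 10 brightest, per line the 8 largest calls in each direction with both arrays above 50, pairs with both arms called, the 5 largest arm differences per line, up to 10 with the star brighter on all arrays, and members of the 17 lists. Others, such as miR-33b*, miR-589*, miR-452*, miR-518c* and the remaining stars named as brighter than their guide or as called in 1 arm, were named after their values were seen. The members and lists were chosen with earlier results of these data known.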

Additional observations from a re-analysis of the deposited data

Results flagged for a closer look

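A pair of stars changed in opposite directions in the lines, each with 1 array per vector, and the difference between the lines was not tested. The miR-22* ratio of shRNA-Ascl2 over shRNA-Ctr was 0.494 in HT-29 and 2.52 in LS174T, where it became a log2 ratio of -1.74 after the spike-in scaling. With signals floored at 50 the miR-33b* ratio was 0.819 in HT-29 and 1.15 in LS174T, so that neither floored value passes 2-fold.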

How the results depend on the processing

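With 1 array per group nothing beyond the spots measures error. Signals near 50 lie within the range of the negative controls on every array but shRNA-Ascl2/LS174T. At a limit of 100 fewer stars passed than at 50, as stars such as let-7a* (77.5) and miR-194* (97) in shRNA-Ascl2/HT-29 drop out. Otherwise star counts above 50 stayed near the main values except on shRNA-Ctr/HT-29 with normexp (169) and with a limit of 200 (45, 47, 42 and 34 on the arrays in order). With the limit of 200 the star was brighter in 11, 11 and 12 pairs on the first 3 arrays. The single HT-29 rise became 7 (spike-in scaling), 0 (normexp), 0 (limit 100), 0 (limit 200), 13 (blocks 1 to 18), 2 (blocks 19 to 36), 9 (landmark correction) and 12 (1.5-fold). The 4 HT-29 falls became 2 (quantile), 2 (spike-in scaling), 1 (normexp), 1 (no background subtraction), 2 (limit 100), 2 (limit 200), 12 (blocks 19 to 36), 11 (1.5-fold) and 2 (3-fold). The 34 LS174T rises became 7 (spike-in scaling), 19 (normexp), 20 (no background subtraction), 22 (limit 100) and 17 (limit 200). The 19 LS174T falls became 80 (spike-in scaling), 10 (normexp), 11 (limit 200), 29 (1.5-fold) and 4 (3-fold). Arms of the same sign in LS174T became 89.7% with the spike-in scaling. Without background subtraction 1 star differed between the lines by limma. A higher limit leaves fewer stars to test, and for the other moves the cause was not tested.

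Under the spike-in scaling 12 LS174T log2 ratios reversed, to -0.88 (miR-106b*), -1.02 (miR-141*), -0.22 (miR-17*), -0.29 (miR-200b*), -1.01 (miR-20a*), -1.94 (miR-20b*), -1.74 (miR-22*), -2.04 (miR-224*), -0.23 (miR-29a*), -1.15 (miR-30e*), -0.88 (miR-31*) and -1.86 (miR-32*). Of the other values for counts and shares 125 stayed close to the main value, and of those for named stars 687 did and 93 moved without reversing. The limma model of the vector already held the cell line as a block, and no pairing by replicate number could be made, since each group had 1 array and the labels give no replicate numbers.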

Other observations

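Among the stars detected on at least 1 array, 8 pairs shared a seed, namely miR-7-1* with miR-7-2*, miR-200a* with miR-200b*, miR-16-2* with miR-195*, miR-373* with miR-616*, miR-24-1* with miR-24-2*, miR-200c* with miR-550a*, miR-19a* with miR-19b-1* and let-7a* with let-7f-1*. Sharing a seed did not go with a shared LS174T value throughout. The miR-24-2* probe rose, at 128 in shRNA-Ascl2/LS174T and 43.3 in shRNA-Ctr/LS174T, while miR-24-1* read 1111 and 1149. Both miR-200a* and miR-200b* rose, at 175 against 15.5 and at 817 against 116.

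The base composition of the stars was set against their LS174T log2 ratio over the 59 stars above 50 on both arrays with a matched sequence. Pearson's r with GC content was -0.25 and Spearman's rho -0.23, and in HT-29 r was 0.10 over 79 stars. The median GC content over stars above 50 on both LS174T arrays was 42.2% for those that rose and 52.3% for those that fell, against 50% over all. These stars share the same arrays, and the values are a description with no test.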
